A study of Mus musculus with 6 samples.

Results

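The interferon-stimulated antiviral genes described here are a set of 35 named genes, chosen by symbol from the 34745 genes of a table of RNA-seq counts. All 35 were found in the table. They were followed in mouse CD4 T cells grown under conditions that drive T helper 17 (Th17) differentiation, with and without PM2.5, a suspension of fine airborne particles. The PM2.5 group received 100 µg/ml of particles 6 h after stimulation, and the control group received PBS at that point. There were 3 libraries in each group. In both groups the starting cells were naive CD4 T cells of 6-week-old female C57BL/6 mice, isolated from spleen. Antibodies to CD3 and CD28 activated them, and the cultures ran for 4 days with IL-6, IL-23, TGF-beta, IL-2 and antibodies against IL-4 and IFN-gamma. Every culture therefore contained an antibody that blocks IFN-gamma, and no culture is described as having received an interferon. The labels do not say whether the replicates of a group came from separate cultures or animals, so a p-value here measures the spread between these libraries alone, which may be technical. In RNA from a whole culture, fewer cells of a type and less RNA per cell cannot be told apart.

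Interferons are secreted proteins that switch on an antiviral state. Type I interferons bind the receptor made of IFNAR1 and IFNAR2, whose kinases JAK1 and TYK2 activate STAT transcription factors. Complexes of STAT proteins with IRF9 bind a short promoter element, the interferon-stimulated response element (ISRE). IFN-gamma acts through its own receptor and a different element, the gamma-activated site (GAS). The genes switched on in this way encode RNA sensors, enzymes that degrade or modify viral RNA, proteins that block virus entry or release, and regulators of the response itself. T cells keep a low level of many of these transcripts without infection.

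The libraries held 27215853, 26121365 and 25397965 counts in the PM2.5 group and 22154837, 19511561 and 22353131 counts in the PBS group. All PM2.5 libraries were thus deeper than all PBS libraries. A count of 0 allowed a level of up to 0.113 to 0.121 CPM, which relate a count to the total of its library, in a PM2.5 library and 0.131 to 0.151 CPM in a PBS library, taking 3 counts as the limit, which covers counting error only. Levels are given below as the deposited FPKM, which are counts per length of the gene and per total of the library. Fold changes are PM2.5 over PBS from edgeR's quasi-likelihood test, with p-values adjusted by Benjamini-Hochberg over all 12967 genes tested and a threshold of 0.05. Most genes of these cells passed that threshold, 9149 of 12967 (70.6%), of which 4567 rose (35.2%) and 4582 fell (35.3%) with PM2.5.

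Most of the antiviral genes that were expressed enough to test were lower in the PM2.5 cultures. Of the 35 genes, 26 were tested, and of these 19 fell, 2 rose and 5 did not pass. The 2 that rose were Isg15, the gene of a ubiquitin-like protein, and Ifih1, which encodes the RNA sensor MDA5. The 19 that fell make up 73.1% of the genes tested, against 35.3% of all genes, and 14 of them fell at least 2-fold (53.8%, against 12.4% of all genes). The log2 fold changes ran from -4.12 to 1.10 with a median of -1.33, against a median of -0.01 over all genes tested (quartiles -0.49 and 0.38). For 21 of the 26 genes every PM2.5 library lay on one side of every PBS library, which was so for 74.9% of all genes.

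The filter on low counts bears on these counts. Of the 26 genes, 20 passed it in both groups, 5 passed only through the PBS libraries (Usp18, Oasl2, Mx1, Parp12 and Xaf1) and 1, Mx2, passed only through the PM2.5 libraries. Genes that passed through 1 group alone were bound to differ to some degree. Among the 20 that passed in both groups, 14 fell (70.0%, against 34.3% of all such genes), 2 rose and 4 did not pass the test, and the median was -0.76, against 0.02 for all such genes. Of these 20, 9 fell at least 2-fold (45.0%, against 9.47% of all such genes). Among the 14 with a mean of at least 5 CPM, 11 fell (78.6%, against 33.1%), 1 rose and 2 did not pass. Their median was -1.05, against 0.07. The 9 genes below the filter were Ifit3, Oas1a, Oas1g, Oas2, Oasl1, Rsad2, Cmpk2, Ifi44 and Rtp4, and their counts are given with their families.

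**Figure D1:**
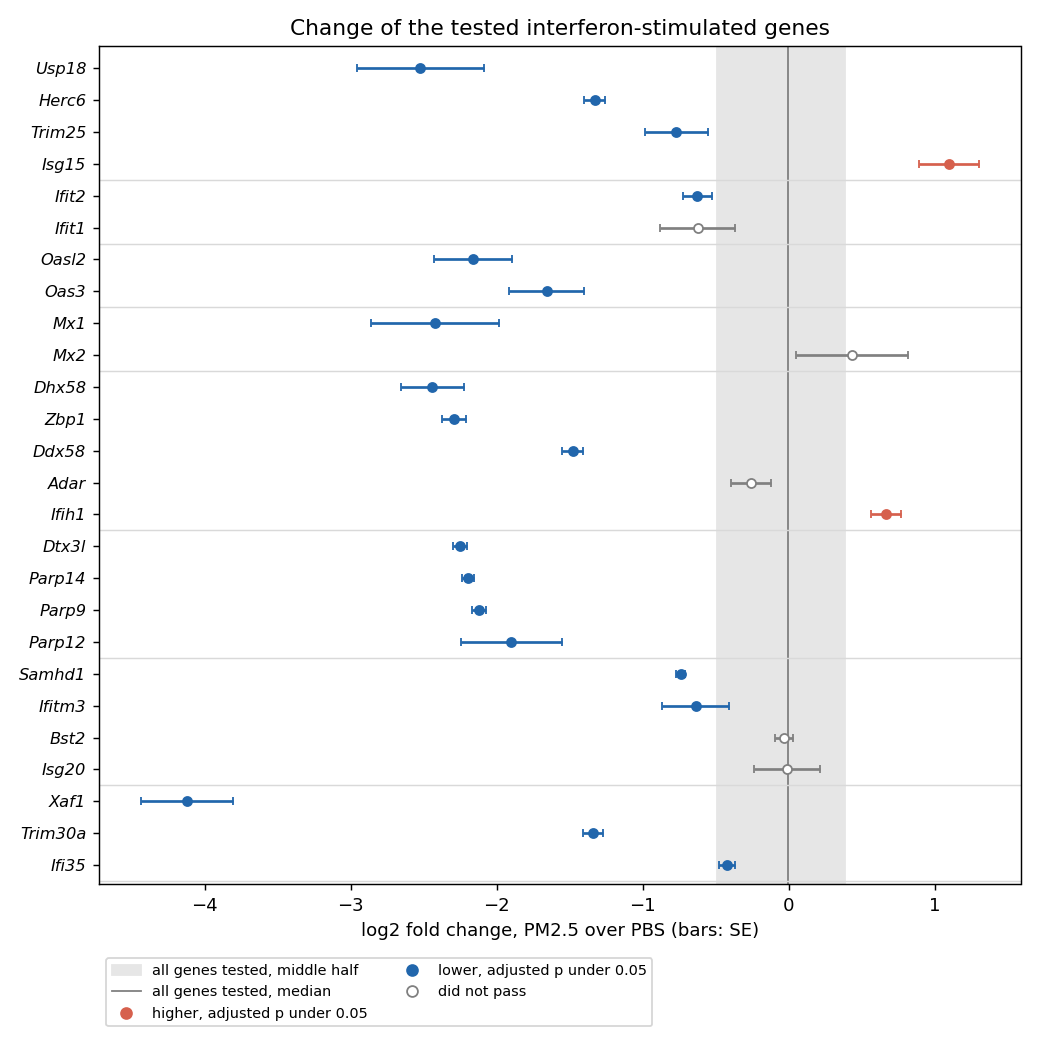
Log2 fold change, PM2.5 over PBS, for the 26 antiviral genes tested, arranged by role, with bars of 1 SE, red for higher, blue for lower, open for not passed, and a grey band between the quartiles of all genes tested. Isg15 and Ifih1 lie above 0 among genes that otherwise lie mostly between -2.5 and 0, and Xaf1 lies lowest at -4.12.

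The promoters of 6 genes are shown because they span the range of responses. Isg15 and Ifih1 rose, Ddx58 and Oas3 fell and hold an ISRE match, Bst2 did not pass the test, and Dtx3l fell 4.77-fold with no match. Each runs from 250 bases before to 50 bases after the start of the RefSeq gene, on the strand of the gene, in build GRCm38.p6. All 6 genes lie on the minus strand, with the windows at chr4:156200769-156201068 for Isg15, chr2:62646206-62646505 for Ifih1, chr4:40239776-40240075 for Ddx58, chr5:120777610-120777909 for Oas3, chr8:71537423-71537722 for Bst2 and chr16:35938978-35939277 for Dtx3l. Capitals mark matches to the ISRE core GAAANNGAAA on either strand.
Isg15: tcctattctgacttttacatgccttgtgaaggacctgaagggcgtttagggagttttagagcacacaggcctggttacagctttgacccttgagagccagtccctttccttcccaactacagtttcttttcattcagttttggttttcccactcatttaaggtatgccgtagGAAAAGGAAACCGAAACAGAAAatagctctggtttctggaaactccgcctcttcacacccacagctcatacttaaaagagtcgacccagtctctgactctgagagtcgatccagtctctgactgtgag
Ifih1: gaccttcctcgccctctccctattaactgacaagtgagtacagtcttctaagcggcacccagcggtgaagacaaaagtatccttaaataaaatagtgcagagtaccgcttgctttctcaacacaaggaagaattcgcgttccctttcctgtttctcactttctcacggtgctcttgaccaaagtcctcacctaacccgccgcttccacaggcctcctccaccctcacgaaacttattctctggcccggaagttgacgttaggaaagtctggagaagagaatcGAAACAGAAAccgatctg
Ddx58: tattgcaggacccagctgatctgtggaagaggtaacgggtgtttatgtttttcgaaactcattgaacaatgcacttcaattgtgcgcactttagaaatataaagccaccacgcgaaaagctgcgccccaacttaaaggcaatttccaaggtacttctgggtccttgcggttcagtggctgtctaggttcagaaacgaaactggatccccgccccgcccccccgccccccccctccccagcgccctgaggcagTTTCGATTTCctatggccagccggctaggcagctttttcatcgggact
Oas3: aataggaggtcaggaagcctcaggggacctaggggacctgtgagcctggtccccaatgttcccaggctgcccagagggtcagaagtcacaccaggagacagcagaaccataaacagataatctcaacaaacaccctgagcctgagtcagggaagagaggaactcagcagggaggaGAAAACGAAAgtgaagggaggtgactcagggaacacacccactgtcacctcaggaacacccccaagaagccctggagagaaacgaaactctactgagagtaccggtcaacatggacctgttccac
Bst2: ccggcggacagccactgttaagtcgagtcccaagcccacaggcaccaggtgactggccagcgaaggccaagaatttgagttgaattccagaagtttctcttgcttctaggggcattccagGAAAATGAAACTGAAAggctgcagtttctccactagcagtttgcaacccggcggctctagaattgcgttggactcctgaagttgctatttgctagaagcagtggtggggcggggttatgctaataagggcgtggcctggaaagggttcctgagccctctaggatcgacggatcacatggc
Dtx3l: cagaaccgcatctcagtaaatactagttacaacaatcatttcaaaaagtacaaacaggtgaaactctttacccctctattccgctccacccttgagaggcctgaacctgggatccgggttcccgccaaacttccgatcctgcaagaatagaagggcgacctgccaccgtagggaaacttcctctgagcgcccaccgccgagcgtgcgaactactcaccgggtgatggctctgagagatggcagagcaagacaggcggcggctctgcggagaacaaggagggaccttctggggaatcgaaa

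Isg15 held 3 overlapping copies of the core, from -78 to -57 relative to the start of the gene, and Bst2 held 2, from -130 to -115. Oas3 held 1 copy from -75 to -66. The copies of Ifih1 (33 to 42) and Ddx58 (3 to 12, on the opposite strand) lay just past the start. RefSeq promoters were found for 26 of the 35 genes, and 12 of these 26 (46.2%) held the core, against 1079 of 27025 promoters of all genes (3.99%). By response, the core was found in the promoters of both genes that rose, of 4 of 13 that fell (Ddx58, Ifitm3, Oas3 and Trim30a), of 2 of 4 that did not pass (Bst2 and Ifit1) and of 4 of 7 that were not tested (Ifit3, Oas1a, Oas1g and Rsad2). The GAS core TTCNNNGAA was found in 8 of the 26 promoters (30.8%), against 2582 of 27025 (9.55%), in 4 of the 13 that fell and in neither of the 2 that rose. Such a match is a run of letters in a short window and does not show that a factor binds there.

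The ISG15 system split into 1 gene that rose (25%, against 35.2% of all genes) and 3 that fell (75%, against 35.3%). Usp18, among the 3 that fell, passed the filter on low counts only through the PBS libraries. ISG15 is attached to other proteins much as ubiquitin is, and is also secreted. Isg15 (ENSMUSG00000035692, chromosome 4, 156199424 to 156200818 in mm10) had 3.11, 4.05 and 3.23 FPKM in the PM2.5 libraries and 1.79, 1.29 and 1.95 FPKM in the PBS libraries. Every PM2.5 library was above every PBS library. The counts behind these values were small, 64, 80 and 62 with PM2.5 and 30, 19 and 33 with PBS. Isg15 averaged 3.46 ± 0.512 FPKM with PM2.5 and 1.68 ± 0.347 FPKM with PBS (SD, n = 3 each), 2.14-fold higher (log2 fold change 1.10, SE 0.20, adjusted p = 0.00071).

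Usp18 encodes the protease that removes ISG15 from its targets and that also binds IFNAR2 to dampen signalling. It had 0.0746, 0.0222 and 0.0343 FPKM with PM2.5 and 0.275, 0.342 and 0.208 FPKM with PBS, from 7, 2 and 3 counts against 21, 23 and 16. It was low everywhere and lowest with PM2.5, where it fell 5.75-fold (log2 fold change -2.52, SE 0.43, adjusted p = 0.000414). Herc6, the main ligase for ISG15 in the mouse, had 0.695, 0.749 and 0.767 FPKM with PM2.5 and 1.99, 1.89 and 1.93 FPKM with PBS. The replicates lay close together and Herc6 fell 2.51-fold (-1.33, SE 0.07, adjusted p = 6.11e-08). GENCODE places a same-strand transcript, Gm45193, over 13.7% of its exon bases, so some reads could belong to either gene.

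Trim25, a ubiquitin ligase that acts on the sensor RIG-I, had 5.33, 5.03 and 5.39 FPKM with PM2.5 and 12.4, 7.86 and 7.81 FPKM with PBS. The groups did not overlap, but PBS replicate 1 stood well above the others of its group. Trim25 fell 1.71-fold (-0.77, SE 0.22, adjusted p = 0.0275). It lost its call without any 1 of the PM2.5 libraries (adjusted p = 0.0788 to 0.0945) and with no filter on low counts (0.0531), although the log2 fold change stayed between -0.78 and -0.74. Without PBS replicate 1 it passed with a smaller change (-0.52, adjusted p = 4.81e-05). Chosen after their values were seen, the genes of the other enzymes that attach ISG15 also moved in opposite directions. The activating enzyme Uba7 had 0.533, 0.453 and 0.546 FPKM with PM2.5 and 3.16, 3.10 and 3.00 FPKM with PBS, 5.78-fold lower (-2.53, SE 0.08, adjusted p = 1.02e-09). The conjugating enzyme Ube2l6 had 1.12, 1.2 and 1.26 FPKM with PM2.5 and 0.830, 0.835 and 0.931 FPKM with PBS, 1.44-fold higher (0.52, SE 0.13, adjusted p = 0.00403). Among the 5 enzymes of the cycle named here, Ube2l6 was thus the gene that moved with Isg15.

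**Figure D2:**
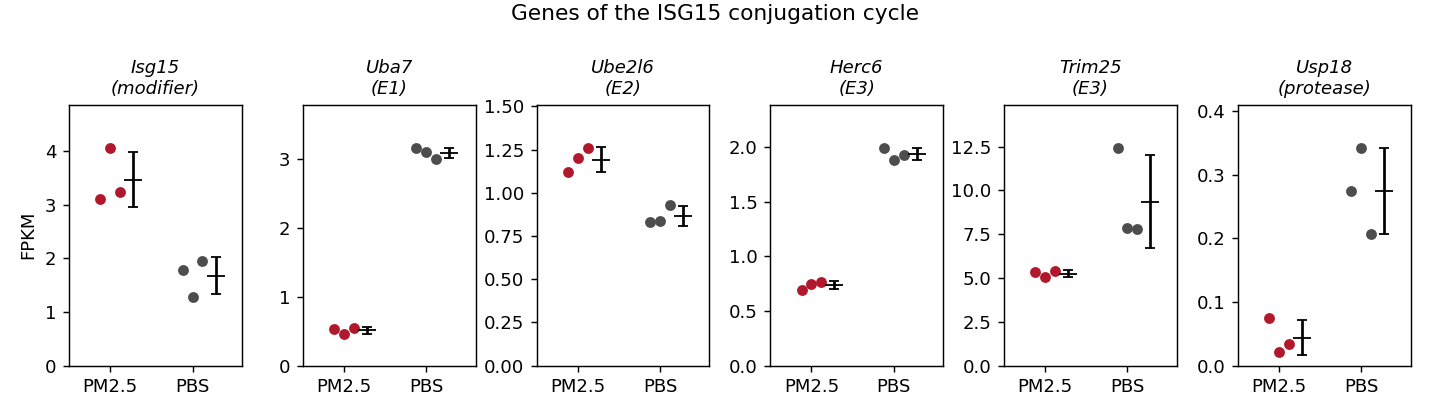
FPKM of Isg15 and of the genes of the enzymes that attach or remove it, 1 point per library, PM2.5 left of PBS in each panel with its own axis, and the group mean as a dash with a bar of 1 SD. Isg15 and Ube2l6 are higher with PM2.5, and Uba7, Herc6, Trim25 and Usp18 are lower.

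Of the 5 nucleic acid sensors and editors, 3 fell (60%, against 35.3% of all genes), 1 rose (20%, against 35.2%) and 1 did not pass. The RIG-I-like receptors, which detect viral RNA in the cytosol, did not move together. Ifih1 had 0.832, 0.799 and 0.822 FPKM with PM2.5 and 0.507, 0.617 and 0.495 FPKM with PBS, with no overlap. It rose 1.59-fold (log2 fold change 0.67, SE 0.10, adjusted p = 0.000216). Ddx58, the gene of RIG-I itself, had 1.24, 1.10 and 1.10 FPKM with PM2.5 and 3.22, 3.57 and 3.26 FPKM with PBS, 2.79-fold lower (-1.48, SE 0.07, adjusted p = 3.02e-08). Dhx58, the gene of LGP2, which lacks the signalling domains of the other sensors and modulates them, had 0.160, 0.184 and 0.288 FPKM with PM2.5 and 1.34, 0.996 and 1.24 FPKM with PBS. It fell 5.43-fold (-2.44, SE 0.22, adjusted p = 3.01e-06). In PBS cells Ddx58 stood highest of these sensors, while in PM2.5 cells Ddx58 (1.15 ± 0.0787 FPKM) and Ifih1 (0.818 ± 0.0168 FPKM) were closer together and Dhx58 (0.21 ± 0.0682 FPKM) lay below both.

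Zbp1, a sensor of Z-form nucleic acid that can trigger necroptosis, had 1.11, 1.01 and 0.921 FPKM with PM2.5 and 5.36, 4.99 and 5.24 FPKM with PBS. It fell 4.90-fold (-2.29, SE 0.08, adjusted p = 3.14e-09), with groups far apart. Adar, the enzyme that edits adenosine to inosine in double-stranded RNA and so limits sensing of the cell's own RNA, had 9.80, 13.2 and 9.60 FPKM with PM2.5 and 13.4, 13.5 and 13.9 FPKM with PBS. PM2.5 replicate 2 lay next to the PBS libraries while the other PM2.5 libraries lay below them. The log2 fold change was -0.26 (SE 0.14, adjusted p = 0.158), and without PM2.5 replicate 2 it was -0.42 (adjusted p = 7.80e-06). Adar also passed with DESeq2 (adjusted p = 0.0168) and with limma on FPKM (0.0397 and 0.0403 with pseudocounts of 1 and 0.1). The neighbouring gene Chrnb2 overlaps 16.8% of its exon bases on the opposite strand, and whether the counting used strand is not given.

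All 4 genes of ADP-ribosylation, the PARP and DTX3L group, fell by at least 2-fold, as did 12.4% of all genes. One of them, Parp12, passed the filter on low counts only through the PBS libraries. PARP9 and the ubiquitin ligase DTX3L form a complex, and PARP14 is a large ADP-ribosyltransferase with macrodomains. Dtx3l (ENSMUSG00000049502, chromosome 16, 35926511 to 35939151) had 3.81, 4.09 and 3.69 FPKM with PM2.5 and 19.4, 19.6 and 18.8 FPKM with PBS, 4.77-fold lower (log2 fold change -2.25, SE 0.05, adjusted p = 6.34e-11). Parp9 (ENSMUSG00000022906, chromosome 16, 35938470 to 35972605) had 3.14, 2.91 and 3.03 FPKM with PM2.5 and 13.8, 13.8 and 13.7 FPKM with PBS, 4.35-fold lower (-2.12, SE 0.05, adjusted p = 1.01e-10). The replicates of both genes differed far less than the groups. Parp14 (ENSMUSG00000034422, chromosome 16, 35832874 to 35871544) had 2.31, 2.14 and 2.28 FPKM with PM2.5 and 10.9, 10.6 and 10.7 FPKM with PBS, 4.58-fold lower (-2.20, SE 0.04, adjusted p = 3.96e-11).

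These 3 genes lie side by side within 140 kb of chromosome 16. Dtx3l and Parp9 point away from each other and their gene bodies overlap by 682 bases. In GENCODE, exons of the other gene cover 8.0% of the exon bases of Dtx3l and 9.40% of those of Parp9. A small part of their counts may therefore be shared. Of the 6 other genes tested within 200 kb, none changed by as much as 2-fold. Changes of that size were uncommon among all 12967 genes tested, where 1602 fell and 844 rose at least 2-fold. Wdr5b fell by 0.98 and Dirc2 fell by 0.40 on the log2 scale, Kpna1, Ccdc58 and Fam162a were higher by 0.56, 0.20 and 0.15, and Hspbap1, at -0.08, did not pass (adjusted p = 0.255). Parp12, an ADP-ribosyltransferase on chromosome 6, had 0.104, 0.0813 and 0.0371 FPKM with PM2.5 and 0.234, 0.338 and 0.317 FPKM with PBS, from 12, 9 and 4 counts against 22, 28 and 30. It fell 3.73-fold (-1.90, SE 0.34, adjusted p = 0.000608).

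**Figure D3:**
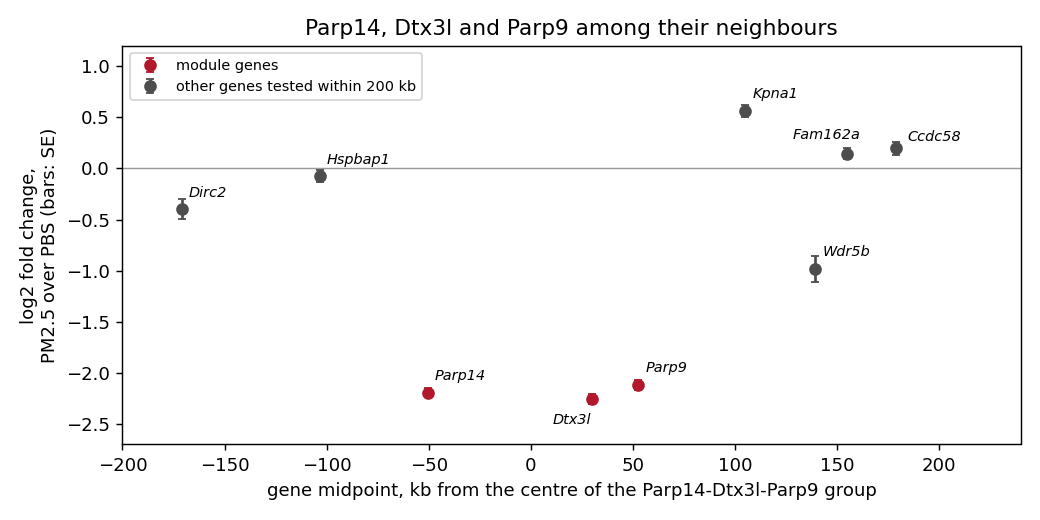
Log2 fold change, PM2.5 over PBS, of the genes tested within 200 kb of the Parp14, Dtx3l and Parp9 group, by distance of the gene's midpoint from the centre of the group in kb, with bars of 1 SE. The 3 antiviral genes lie between -2.25 and -2.12 and their 6 neighbours between -0.98 and 0.56.

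The IFIT, OAS and Mx families, among the genes most used as readouts of interferon, were scarce in both groups. IFIT proteins bind viral RNA by its cap or its free end. Ifit2 averaged 1.33 ± 0.101 FPKM with PM2.5 and 2.15 ± 0.137 FPKM with PBS and fell 1.54-fold (log2 fold change -0.63, SE 0.10, adjusted p = 0.000222). Ifit1 averaged 0.258 ± 0.0136 FPKM with PM2.5 and 0.417 ± 0.10 FPKM with PBS. The groups did not overlap, yet Ifit1 did not pass at -0.62 on the log2 scale (SE 0.26, adjusted p = 0.0508). It passed with library totals as the scaling (0.0349) and without PBS replicate 1 (0.0286). Ifit3 had 6, 4 and 6 counts with PM2.5 and 8, 3 and 4 with PBS, and shares 51.2% of its 50-base words with its copy Ifit3b, which had 0, 3 and 4 counts against 1, 0 and 0. The paralog Ifit1bl1 had 3, 7 and 5 counts with PM2.5 and 0, 2 and 1 with PBS.

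The oligoadenylate synthetases (OAS) sense double-stranded RNA and make the messenger that activates RNase L. Oas3 had 0.0832, 0.0684 and 0.117 FPKM with PM2.5 and 0.360, 0.299 and 0.229 FPKM with PBS, from 19, 15 and 25 counts against 67, 49 and 43. It fell 3.15-fold (log2 fold change -1.66, SE 0.26, adjusted p = 0.000205). Oasl2 had 0.0377, 0.0250 and 0.0441 FPKM with PM2.5 and 0.156, 0.196 and 0.154 FPKM with PBS, from 11, 7 and 12 counts against 37, 41 and 37. It fell 4.48-fold (-2.16, SE 0.27, adjusted p = 3.54e-05). Neither gene had overlapping groups.

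The other OAS members were close to absent. Oas1a had 0 counts in every PM2.5 library and 3, 4 and 0 in the PBS libraries. Oas1g had 0 counts in all 6 libraries. Oas1a shares 57.6% of its 50-base words with Oas1g, so reads of either could be misplaced or dropped. Oas2 had 0 counts in every PM2.5 library and 0, 2 and 2 with PBS. Oasl1 had 5, 4 and 7 counts with PM2.5 and 12, 5 and 6 with PBS. Of the OAS genes outside the set, Oas1b had 0.288, 0.323 and 0.344 FPKM with PM2.5 and 1.31, 1.21 and 1.55 FPKM with PBS (-2.02, SE 0.17, adjusted p = 1.71e-06). Oas1c had 0.240, 0.119 and 0.135 FPKM with PM2.5 and 1.31, 1.44 and 1.16 FPKM with PBS (-2.89, SE 0.24, adjusted p = 1.73e-06). It passed the filter on low counts only through the PBS libraries.

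The Mx GTPases block the replication of several viruses, and common laboratory strains such as C57BL/6 carry disrupted copies. Mx1 had 0.0279, 0.0146 and 0.0150 FPKM with PM2.5 and 0.129, 0.0975 and 0.111 FPKM with PBS, from 4, 2 and 2 counts against 15, 10 and 13. It fell 5.36-fold (log2 fold change -2.42, SE 0.44, adjusted p = 0.000590). Mx2, which GENCODE lists as a polymorphic pseudogene, had 16, 16 and 14 counts with PM2.5 and 15, 4 and 10 with PBS, and did not pass at 0.43 on the log2 scale (SE 0.38, adjusted p = 0.333). The groups of Mx2 overlapped, and those of Mx1 did not.

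**Figure D4:**
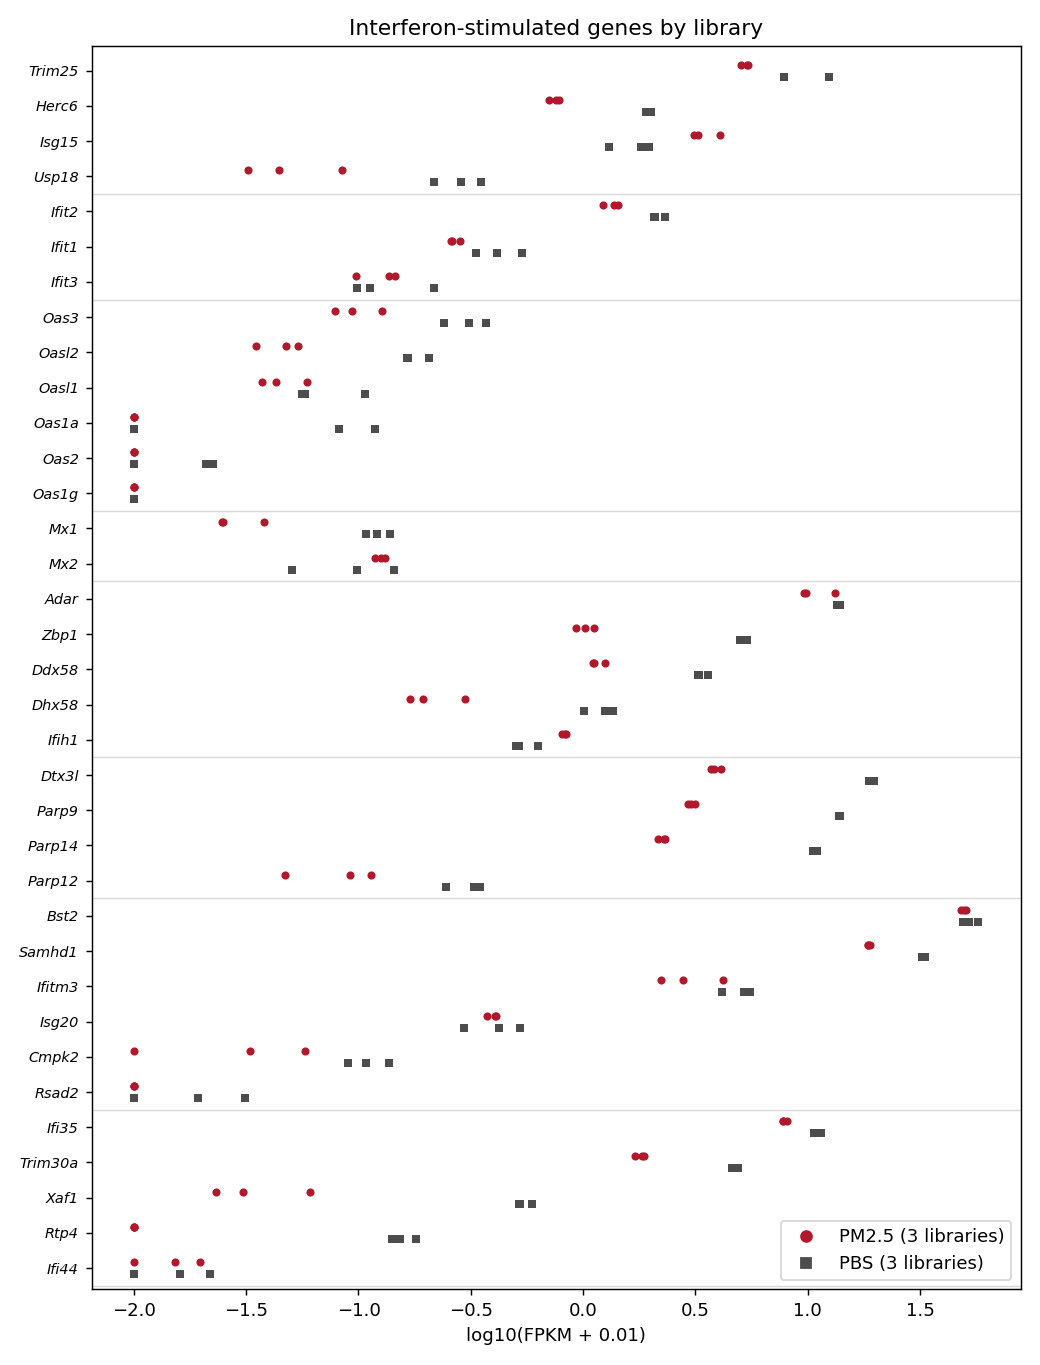
Deposited FPKM of the 35 antiviral genes in each library on a log10 axis (FPKM + 0.01), arranged by role, with PM2.5 as circles above PBS as squares. Bst2 and Samhd1 are the most abundant and many IFIT, OAS and Mx genes lie below 1 FPKM in both groups.

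Among the effectors at membranes and on nucleotides were the most abundant genes of the set. Bst2 encodes tetherin, which holds budding virus at the cell surface. It had 47.9, 50.8 and 49.6 FPKM with PM2.5 and 57.4, 49.0 and 52.1 FPKM with PBS, the highest level of any member in either group. The groups overlapped, and Bst2 did not pass at -0.03 on the log2 scale (SE 0.06, adjusted p = 0.657). Samhd1, the enzyme that degrades the deoxynucleotides needed for reverse transcription, had 19.0, 18.5 and 18.5 FPKM with PM2.5 and 32.1, 33.2 and 32.4 FPKM with PBS. It fell 1.67-fold (-0.74, SE 0.03, adjusted p = 5.87e-09), a modest change beside replicates that barely differed.

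Ifitm3, which hinders the fusion of virus with the cell, averaged 3.05 ± 1.01 FPKM with PM2.5 and 4.97 ± 0.717 FPKM with PBS and fell 1.55-fold (-0.64, SE 0.23, adjusted p = 0.0295), although the groups overlapped. Its call was lost with DESeq2 (adjusted p = 0.0633) and without PM2.5 replicate 2 or 3 or PBS replicate 1 or 3 (0.0802 to 0.0978). The exonuclease gene Isg20 had overlapping groups and did not pass (-0.01, SE 0.23, adjusted p = 0.967). Rsad2, the gene of viperin, which makes a chain-terminating nucleotide, had 0 counts in every PM2.5 library and 0, 2 and 1 with PBS, both within the limit that 0 counts allow. Its genomic neighbour Cmpk2, a nucleotide kinase of the mitochondrion, had 2, 4 and 0 counts with PM2.5 and 9, 5 and 7 with PBS.

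The 3 remaining induced genes that were tested all fell, as did 35.3% of all genes. Of these, Xaf1 passed the filter on low counts only through the PBS libraries. Xaf1, a partner of the apoptosis inhibitor XIAP (ENSMUSG00000040483, chromosome 11, 72301629 to 72313733), had 0.0509, 0.0133 and 0.0205 FPKM with PM2.5 and 0.508, 0.515 and 0.581 FPKM with PBS, from 8, 2 and 3 counts against 65, 58 and 75. It fell 17.4-fold, the largest change among the 26 genes tested (log2 fold change -4.12, SE 0.32, adjusted p = 9.07e-07). Trim30a, a ubiquitin ligase that restrains inflammatory signalling in the mouse, had 1.85, 1.82 and 1.70 FPKM with PM2.5 and 4.85, 4.59 and 4.73 FPKM with PBS. It fell 2.53-fold (-1.34, SE 0.07, adjusted p = 3.67e-08). Its paralog Trim30d, which shares 6.53% of the 50-base words of Trim30a, had 0.141, 0.228 and 0.181 FPKM with PM2.5 and 0.511, 0.639 and 0.575 FPKM with PBS (-1.58, SE 0.21, adjusted p = 5.82e-05).

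Ifi35 had 7.71, 7.73 and 8.08 FPKM with PM2.5 and 11.5, 10.8 and 10.7 FPKM with PBS. The fall was small, 1.34-fold, with no overlap (-0.42, SE 0.06, adjusted p = 6.95e-05), and the antisense transcript Gm11626 covers 16.8% of its exon bases. Rtp4, a chaperone of membrane receptors, had 0 counts in every PM2.5 library and 5, 4 and 6 with PBS. With a limit of 3 counts over the PM2.5 group it was at least 5.88-fold lower, with no counting error allowed for the PBS counts. Ifi44 had 2, 0 and 1 counts with PM2.5 and 1, 0 and 2 with PBS.

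The genes of the signalling pathway upstream of the set were taken from lists of ligands, receptors, signal transducers and negative regulators. Ifng, the gene of IFN-gamma, was the only one of 21 interferon genes with enough counts to test. It had 35.5, 34.9 and 35.0 FPKM with PM2.5 and 10.8, 12 and 11.4 FPKM with PBS, 3.23-fold higher (log2 fold change 1.69, SE 0.06, adjusted p = 2.22e-09). The other 20, all of type I or type III, had 11 counts in all with PM2.5 and 5 in all with PBS, and 13 of them had 0 counts in all 6 libraries. Ifnb1, the interferon-beta gene, had 0, 2 and 1 counts with PM2.5 and 0, 0 and 0 with PBS.

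Of the 6 receptor genes, 5 fell (83.3%, against 35.3% of all genes) and 1 rose, most of them slightly. Ifnlr1, the gene that rose, passed the filter on low counts only through the PM2.5 libraries, so it was bound to differ to some degree. Ifnar1 had 8.36, 8.42 and 8.45 FPKM with PM2.5 and 9.63, 9.91 and 9.43 FPKM with PBS (-0.14, SE 0.04, adjusted p = 0.00709). Ifnar2 had 6.18, 5.68 and 5.72 FPKM with PM2.5 and 7.96, 7.46 and 7.68 FPKM with PBS (-0.33, SE 0.05, adjusted p = 0.000268). Ifngr1, the ligand-binding chain of the IFN-gamma receptor, changed most. It had 9.19, 9.14 and 9.09 FPKM with PM2.5 and 20.2, 19.3 and 19.7 FPKM with PBS, 2.07-fold lower (-1.05, SE 0.04, adjusted p = 4.72e-09). Il10rb, a chain shared by the receptors for IL-10 and type III interferon, fell by 0.37 (adjusted p = 0.00546).

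Among the 12 kinases, STATs and IRFs 7 fell (58.3%, against 35.3% of all genes) and 3 rose. The other 2 did not pass, and the median was -0.43. Stat2 and Irf9, which act together at the ISRE, both fell. Stat2 had 7.90, 8.59 and 7.90 FPKM with PM2.5 and 16.4, 16.3 and 17.3 FPKM with PBS, 1.96-fold lower (-0.97, SE 0.05, adjusted p = 4.08e-08). Irf9 had 4.19, 4.42 and 4.67 FPKM with PM2.5 and 7.44, 7.61 and 7.53 FPKM with PBS, 1.63-fold lower (-0.70, SE 0.05, adjusted p = 5.61e-07). The groups of neither gene overlapped.

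Irf7, the factor that amplifies type I interferon production, had 0.189, 0.125 and 0.135 FPKM with PM2.5 and 0.998, 0.718 and 0.822 FPKM with PBS, 5.38-fold lower (-2.43, SE 0.20, adjusted p = 1.56e-06). Irf8 fell by 1.24 on the log2 scale (adjusted p = 4.64e-10). The genes that rose included the kinase Jak2, with 196, 199 and 195 FPKM with PM2.5 and 106, 112 and 104 FPKM with PBS (0.94, SE 0.03, adjusted p = 2.82e-09). Irf5 also rose (1.03, SE 0.07, adjusted p = 2.44e-07).

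Of 13 tested adaptors, kinases and Toll-like receptors of nucleic acid sensing, 5 fell (38.5%, against 35.3% of all genes), 3 rose and 5 did not pass. The share that fell was thus near that of all genes, and the median was -0.04. Tlr9, among the 5 that fell, passed the filter on low counts only through the PBS libraries. Tmem173, the gene of the DNA-sensing adaptor STING, fell by 1.12 (adjusted p = 8.37e-10), and Eif2ak2, the gene of the RNA-activated kinase PKR, fell by 1.26 on the log2 scale (adjusted p = 2.76e-08). The adaptor Ticam1 (0.53, adjusted p = 8.08e-07) and the ubiquitin ligase Traf6 (0.27, adjusted p = 9.39e-06) rose.

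Among 14 negative regulators 9 rose (64.3%, against 35.2% of all genes) and 3 fell. The other 2 did not pass, and the median was 0.29. The suppressors of cytokine signalling moved the other way from most of the list. Socs3 had 5.17, 4.99 and 4.96 FPKM with PM2.5 and 52.4, 52.3 and 53.3 FPKM with PBS, 9.99-fold lower (-3.32, SE 0.04, adjusted p = 3.15e-12). Socs1, a feedback inhibitor of JAK kinases, had 5.84, 7.94 and 7.0 FPKM with PM2.5 and 39.3, 32.9 and 38.0 FPKM with PBS, 5.08-fold lower (-2.34, SE 0.11, adjusted p = 1.71e-07). Isg20l2, a list member known for ribosomal RNA processing (0.66, adjusted p = 5.78e-08), and the phosphatase Ptpn11 (0.39, adjusted p = 2.50e-06) rose.

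**Figure D5:**
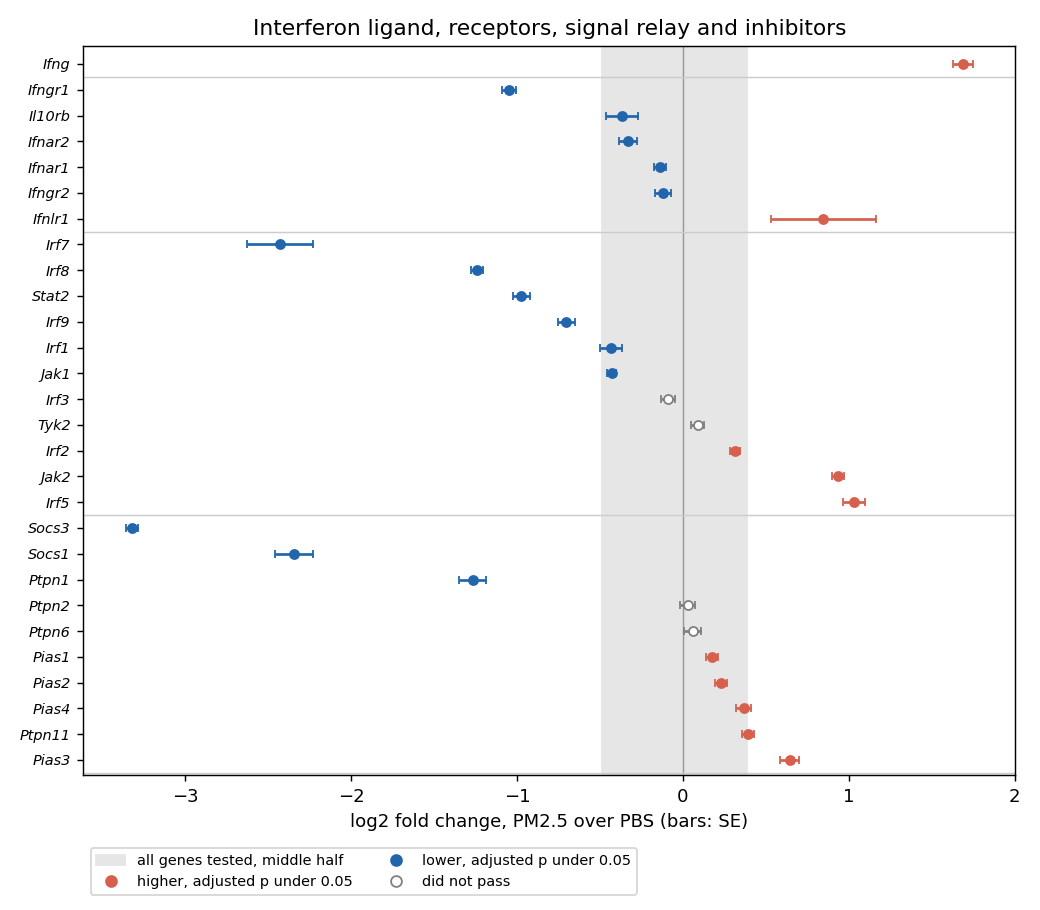
Log2 fold change, PM2.5 over PBS, of genes of the interferon pathway, arranged from ligand and receptors to most of the signal transducers and 10 of the 14 negative regulators (Socs, Ptpn and Pias genes), with bars of 1 SE and a grey band between the quartiles of all genes tested. Ifng and Jak2 lie above 0, and Stat2, Irf9, Irf7, Socs1 and Socs3 lie below it.

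Interferon-induced genes outside the set were taken from a further list of 51, of which 49 were in the table and 46 were tested. Of these 35 fell (76.1%, against 35.3% of all genes), 22 of them at least 2-fold (47.8%, against 12.4%), 5 rose and 6 did not pass. Ddx60, among these 22, passed the filter on low counts only through the PBS libraries. The median log2 fold change was -0.98, against -0.01 over all genes. Gbp2, a guanylate-binding protein that attacks intracellular microbes, had 49.5, 49.6 and 47.8 FPKM with PM2.5 and 265, 263 and 258 FPKM with PBS, 5.11-fold lower (-2.35, SE 0.03, adjusted p = 3.90e-12). Mov10, an RNA helicase that restrains retroelements, had 1.14, 1.37 and 1.31 FPKM with PM2.5 and 10.4, 10.4 and 10.3 FPKM with PBS, 7.76-fold lower (-2.96, SE 0.07, adjusted p = 1.02e-10). Apol9b fell 13.6-fold (-3.77, SE 0.09, adjusted p = 1.02e-10), and Sp100, a protein of nuclear bodies, fell 3.41-fold (-1.77, SE 0.05, adjusted p = 2.21e-10).

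The cultures carried the markers of CD4 T cells, with all 7 genes of that list detected and summing to 2250 to 2273 CPM with PM2.5 and 2776 to 2806 CPM with PBS. Of these 7 genes, 6 fell (85.7%, against 35.3% of all genes) and Cd28 rose by 0.59 on the log2 scale (adjusted p = 7.41e-08). Th17 markers summed to 2886 to 3372 CPM with PM2.5 and 4287 to 4392 CPM with PBS. The markers of that list that differed most in CPM were Il17f and Maf. Il17f had 1812 ± 256 CPM with PM2.5 and 2322 ± 58.3 CPM with PBS, and Maf had 266 ± 2.92 and 820 ± 12.5 CPM. Il17a and Rora fell by only 0.13 and 0.14 on the log2 scale, and Il23r did not pass (0.03, adjusted p = 0.773). Sums of several, but not all, marker lists of other cells also differed between the groups, in either direction. The 5 NK cell markers summed to 7.83 to 8.68 CPM with PM2.5 and 34.0 to 42.6 CPM with PBS, with Ncr1 and Klra8 at 0. Most of that sum was Klrd1 (7.11 ± 0.393 CPM with PM2.5 and 38.4 ± 4.29 CPM with PBS), and Eomes, the other NK marker tested, went the other way (0.972 ± 0.174 CPM with PM2.5 and 0.0753 ± 0.0216 CPM with PBS, log2 fold change 3.58, adjusted p = 2.40e-05). Eomes passed the filter on low counts only through the PM2.5 libraries, so it was bound to differ to some degree. The 6 macrophage and monocyte markers summed to 2.71 to 3.13 CPM with PM2.5 and 4.74 to 5.83 CPM with PBS, with Lyz2 at 0. Most of that sum was Cd68 (2.74 ± 0.201 CPM with PM2.5 and 4.69 ± 0.605 CPM with PBS). The 5 B cell markers summed to 0.242 to 0.451 CPM with PM2.5 and 1.01 to 1.65 CPM with PBS, with Ms4a1 at 0. Cd79b, the only B cell marker tested, had 9 counts in all with PM2.5 and 48 with PBS. It passed the filter on low counts only through the PBS libraries. Neutrophil markers summed to 0.564 to 0.705 CPM with PM2.5 and 5.19 to 6.14 CPM with PBS, with S100a8 and S100a9 at 0, and most of that sum was Ly6g (0.624 ± 0.0538 CPM with PM2.5 and 5.53 ± 0.529 CPM with PBS).

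Markers of conventional dendritic cells summed to 2.62 to 3.58 CPM with PM2.5 and 0.928 to 1.26 CPM with PBS, with Clec9a at 0. The rise of that sum was that of Zbtb46 (2.68 ± 0.430 CPM with PM2.5 and 0.455 ± 0.136 CPM with PBS), while Itgax, the other one tested, fell by 1.17 on the log2 scale (adjusted p = 0.0137). Zbtb46 passed the filter on low counts only through the PM2.5 libraries, and Itgax only through the PBS libraries. Each was thus bound to differ to some degree. Markers of plasmacytoid dendritic cells, the main makers of type I interferon, were summed without Bst2. They came to 36.8 to 38.7 CPM with PM2.5 and 30.5 to 36.9 CPM with PBS, with Siglech at 0. Nearly all of that sum was Tcf4 (37.7 ± 0.896 CPM with PM2.5 and 34.4 ± 3.42 CPM with PBS), which did not pass. Ccr9 had 4 counts in all in each group, and Ly6d had 0 with PM2.5 and 4 with PBS. The CD8 markers summed to 9.05 to 10.0 CPM with PM2.5 and 10.0 to 11.2 CPM with PBS, a sum of opposite changes, since Cd8a fell by 0.86 (adjusted p = 0.000725) and Cd8b1 rose by 0.55 on the log2 scale (adjusted p = 0.00243). The part of these cell markers and of the deeper PM2.5 libraries in the changes of the antiviral genes was not tested.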

How the data were processed

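RNA was sequenced from 6 libraries, 3 per group. The authors deposited 1 table of raw counts and of FPKM per gene, with symbols and mm10 coordinates, per the file headers. The submitters' processing notes name TopHat2 2.0.6 and mm10. Not given in the sources used here are the counter, its annotation and its strand setting, so counts of overlapping or near-identical genes are uncertain, and their overlap was read from GENCODE.

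The deposited counts were tested with edgeR 4.0.16 (R 4.3.3), TMM scaling, robust quasi-likelihood fits and filterByExpr (minimum count 10, minimum total 15), which kept 12967 genes. The steps were tested on simulated counts. TMM factors were 0.978 with PM2.5 and 1.02 to 1.03 with PBS, so fold changes differ slightly from ratios of the deposited FPKM. The common coefficient of variation was 8.17%. Replicates differed by more than counting error (chi-square per degree of freedom 9.20 to 9.89 with PM2.5, 7.57 to 9.18 with PBS), so each library was kept as 1 replicate.

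Alternatives were other scalings and filters, DESeq2 1.42.0, limma 3.58.1 on log2 of the deposited FPKM plus a pseudocount, a replicate block, and each library left out. Values in every library are given for members that passed with at least a 2-fold change, that rose, or whose mean in either group was among the 8 highest. Outside the set, up to 4 genes per pathway list with the smallest adjusted p, a few fixed pathway genes and 4 paralogs are named. Ifnlr1, Tlr9 and Ddx60 are named because they passed the filter through 1 group alone. One gene of a pathway list is not reported here. The members and lists were chosen with earlier results of these data known. Promoter sequences are from RefSeq (GRCm38.p6).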

Additional observations from a re-analysis of the deposited data

How the results depend on the processing

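Over 15 alternatives, 734 of 749 values of the genes named by the rule stayed on the same side of the threshold. None turned the direction of a gene that passed in the main fit or in the alternative. Turns of direction in genes that passed in neither fit were not counted. Of the 26 members tested, 22 kept their side under every alternative that tested them. The exceptions were Trim25, Ifit1, Adar and Ifitm3, whose values are given above. Fewer members were called where fewer were tested. With a mean of at least 5 CPM 14 were tested, 11 fell and 1 rose, with a median of -1.12, and with limma on log2(FPKM + 1) or log2(FPKM + 0.1) 15 were tested and 1 rose, with medians of -0.76 and -0.80. The median was -1.40 with no filter on low counts (34 tested). It was -1.32 with Oas1a, Oas2 and Rtp4, at 0 with PM2.5, set at the limit of 3 counts over the group and Rsad2 left out. It was -0.26 with limma on log2(FPKM + 1) and no filter, where the pseudocount draws low values together. Leaving out 1 library gave 17 to 19 members that fell, 2 that rose and a median of -1.35 to -1.32. The replicate numbers did not pair the libraries, since same-numbered libraries had correlated deviations of 0.013, 0.0072 and 0.045 and not every library correlated best with its own number. With the numbers as a replicate block, 9003 genes were called, 19 members fell, 2 rose, and the median was -1.34. Depth limits the members with a few counts per library, and 9 of the 35 were too low to test.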

Other observations

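The genes tested within 200 kb of the other antiviral gene clusters moved in both directions, as did all genes tested (35.2% rose and 35.3% fell). Around the Ifit genes on chromosome 19, of 3 other genes 2 fell and 1 rose. Ch25h, itself an interferon-induced enzyme that makes an antiviral oxysterol, fell by 0.61 on the log2 scale (SE 0.24, adjusted p = 0.0414 with edgeR), about as far as Ifit2, and the lysosomal lipase Lipa fell by 0.43 (SE 0.06, adjusted p = 0.000111). Pank1, a kinase of coenzyme A synthesis, rose (0.69, SE 0.15, adjusted p = 0.00177). Around the Oas genes on chromosome 5, of 7 genes outside the family 3 rose, 1 fell and 3 did not pass, over log2 fold changes of -0.29 to 2.27. Around Oasl2, of 11 genes 5 rose, 2 fell and 4 did not pass, over -0.83 to 0.52. The genes named here were chosen after their values were seen.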
